A study of Mus with 7 samples.

Results

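Interferon-inducible GTPases were followed through 7 single-cell libraries of mouse fetal liver-derived macrophages (FLMs). The 8 genes were Irgm1, Irgm2 and Igtp of the immunity-related GTPases (IRGs), Gbp2, Gbp3, Gbp5 and Gbp7 of the guanylate-binding proteins (GBPs), and Mx1. They were chosen by symbol from the 31053 genes in the count files, and all 8 were found. FLMs are self-renewing macrophages grown from livers of wild-type C57BL/6J mouse fetuses in GM-CSF. The cells of every library were cultured with 30 ng/mL of GM-CSF and with 1% penicillin-streptomycin. Con was collected from medium with 10% FBS before any treatment. The other 6 libraries came from cells held for 24 h in 0.25% FBS with 8.3 µM BSA as vehicle (Veh) or with 25 µM of the omega-3 fatty acid docosahexaenoic acid (DHA) on 8.3 µM BSA. Of these, Veh.LPS.0 and DHA.LPS.0 received no LPS, Veh.LPS.1 and DHA.LPS.1 received 20 ng/mL LPS for 1 h after removal of the BSA or DHA medium, and Veh.LPS.4 and DHA.LPS.4 received it for 4 h. FLMs are an in vitro model from 1 tissue and 1 strain, and how many fetal livers stood behind each library was not given in the sources used here.

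Each condition was 1 library, so no difference below has a replicate check and no p-value is given. Removal of the BSA or DHA medium came with LPS, so in comparisons of LPS with no LPS they cannot be told apart. All intervals are 95% intervals for counting error alone.

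Cells were barcodes with more than 20000 unique molecular identifiers (UMIs, tags that mark each captured RNA molecule once), at least 2000 genes and less than 20% mitochondrial UMIs. Between 692 cells in DHA.LPS.4 and 3073 cells in Veh.LPS.1 passed. Their totals ran from 22045775 to 125716982 UMIs and their median depth from 29369 UMIs in Veh.LPS.1 to 56239 UMIs in Veh.LPS.4. Libraries with DHA lost more barcodes to the mitochondrial limit, 74.4% to 80.0%, against 29.0% to 54.7% in the other 4 libraries. Of 11624 distinct barcodes, 16 occurred in more than 1 library. The 9 macrophage markers examined summed to 5817 to 7088 CPM (UMIs per 1000000 UMIs of the library), and none was at 0. The 5 markers of T, NK or B cells, the usual sources of interferon gamma, were at 0 in 6 libraries and had 2 UMIs, of Cd3g, in Con.

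Interferons released by infected or alarmed cells bind receptors whose signals pass through JAK kinases to transcription factors of the STAT and IRF families. Among the most strongly induced targets are large GTPases that defend the cell interior. IRGs and GBPs gather on the vacuoles in which bacteria and parasites live and help to break them open, and Mx proteins block incoming viruses. In macrophages LPS acts through TLR4, which triggers interferon beta, so the GTPases follow as a second wave.

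According to the RefSeq annotation of GRCm38.p6, the base assembly of the build mm10 named for these files, the 4 GBP genes lie in a cluster on chromosome 3. Gbp5 spans 142496934 to 142522344, Gbp7 142530336 to 142550151, Gbp3 142560016 to 142573213 and Gbp2 142620663 to 142638008, with Gbp2b between the last pair. Igtp at 58199556 to 58207592 and Irgm2 at 58214977 to 58222783 are direct neighbours on chromosome 11. Irgm1 lies apart from them on the same chromosome at 48865245 to 48871420, beside Gm5431, another IRG gene. Mx1 spans 97447035 to 97462906 on chromosome 16 and is annotated as a transcribed pseudogene, and common laboratory strains are known to carry a defective copy. GBP and IRG genes have close relatives, so reads that match several copies may be lost or split, and this was not tested.

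Irgm1 (ENSMUSG00000046879), a regulatory IRG that restrains the effector IRGs and is known for a role in autophagy, stood at 5.76 CPM before treatment in Con. With vehicle its level was 7.11 CPM without LPS, 3.99 CPM after 1 h and 40.1 CPM after 4 h of LPS. With DHA the corresponding levels were 9.05, 7.13 and 11.4 CPM. Its highest level stood 10.0-fold above its lowest, with Veh.LPS.4 apart at the top and Con and then Veh.LPS.1 apart at the bottom. DHA.LPS.4, DHA.LPS.0, DHA.LPS.1 and Veh.LPS.0 followed each other with overlapping intervals between neighbours. In cells thinned to 20000 UMIs, Irgm1 was detected in 43.0% of Veh.LPS.4 cells (39.9 to 46.2%) and in 16.9% of DHA.LPS.4 cells (14.2 to 19.9%). In the other libraries the thinned share ran from 6.80% to 16.2%.

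Irgm2 (ENSMUSG00000069874), another regulatory IRG, stood at 0.597 CPM in Con. Over the hours 0, 1 and 4 its level was 1.20, 0.677 and 5.58 CPM with vehicle, and 0.799, 1.10 and 2.09 CPM with DHA. Veh.LPS.4 and then DHA.LPS.4 stood apart from the next library in the order, and the other 5 overlapped with their neighbours. The interval of DHA.LPS.4 began at 1.528 CPM and just met that of DHA.LPS.1, which ended at 1.53 CPM. Igtp (ENSMUSG00000078853), the third regulatory IRG, stood at 1.43 CPM in Con. Vehicle libraries held 3.28, 2.25 and 8.16 CPM of it in the order of the hours, and DHA libraries 2.71, 2.70 and 2.59 CPM. Igtp was thus highest in Veh.LPS.4 and lowest in Con, with the 5 libraries between them overlapping from neighbour to neighbour.

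Gbp7 (ENSMUSG00000040253), a GBP linked to oxidative killing of microbes, stood at 8.76 CPM in Con. Over the hours 0, 1 and 4 its level was 13.2, 10.2 and 11.2 CPM with vehicle, and 11.1, 12.6 and 5.90 CPM with DHA. Its range was the narrowest of the 8 genes, 2.24-fold from DHA.LPS.4 to Veh.LPS.0, and DHA.LPS.4 was apart from the rest at the bottom. Gbp3 (ENSMUSG00000028268) stood at 0.787 CPM in Con. Vehicle libraries held 0.962, 1.00 and 3.53 CPM of it in the order of the hours, and DHA libraries 1.46, 1.60 and 1.77 CPM. Only Veh.LPS.4 had an interval for Gbp3 apart from its neighbour.

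Few molecules of the remaining 3 genes were captured. Gbp2 (ENSMUSG00000028270), one of the GBPs that coat pathogen vacuoles, had 5 UMIs in Con, 4, 8 and 63 UMIs in Veh at 0, 1 and 4 h, and 2, 10 and 13 UMIs in DHA. Gbp5 (ENSMUSG00000105504), known for promoting inflammasome assembly, had 3 UMIs in Con, 12, 15 and 61 UMIs in Veh, and 14, 15 and 7 UMIs in DHA. Mx1 (ENSMUSG00000000386) had 1 UMI in Con, 8, 9 and 31 UMIs in Veh, and 3, 30 and 1 UMIs in DHA. In CPM, Gbp2 ran from 0.0398 to 1.07, Gbp5 from 0.0239 to 1.04 and Mx1 from 0.00795 to 0.943. Gbp2 and Gbp5 were highest in Veh.LPS.4, whereas Mx1 was highest in DHA.LPS.1. These 3 genes had a mean under 1 CPM over the 7 libraries, the limit used to count all genes, and the other 5 passed it.

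**Figure D1:**
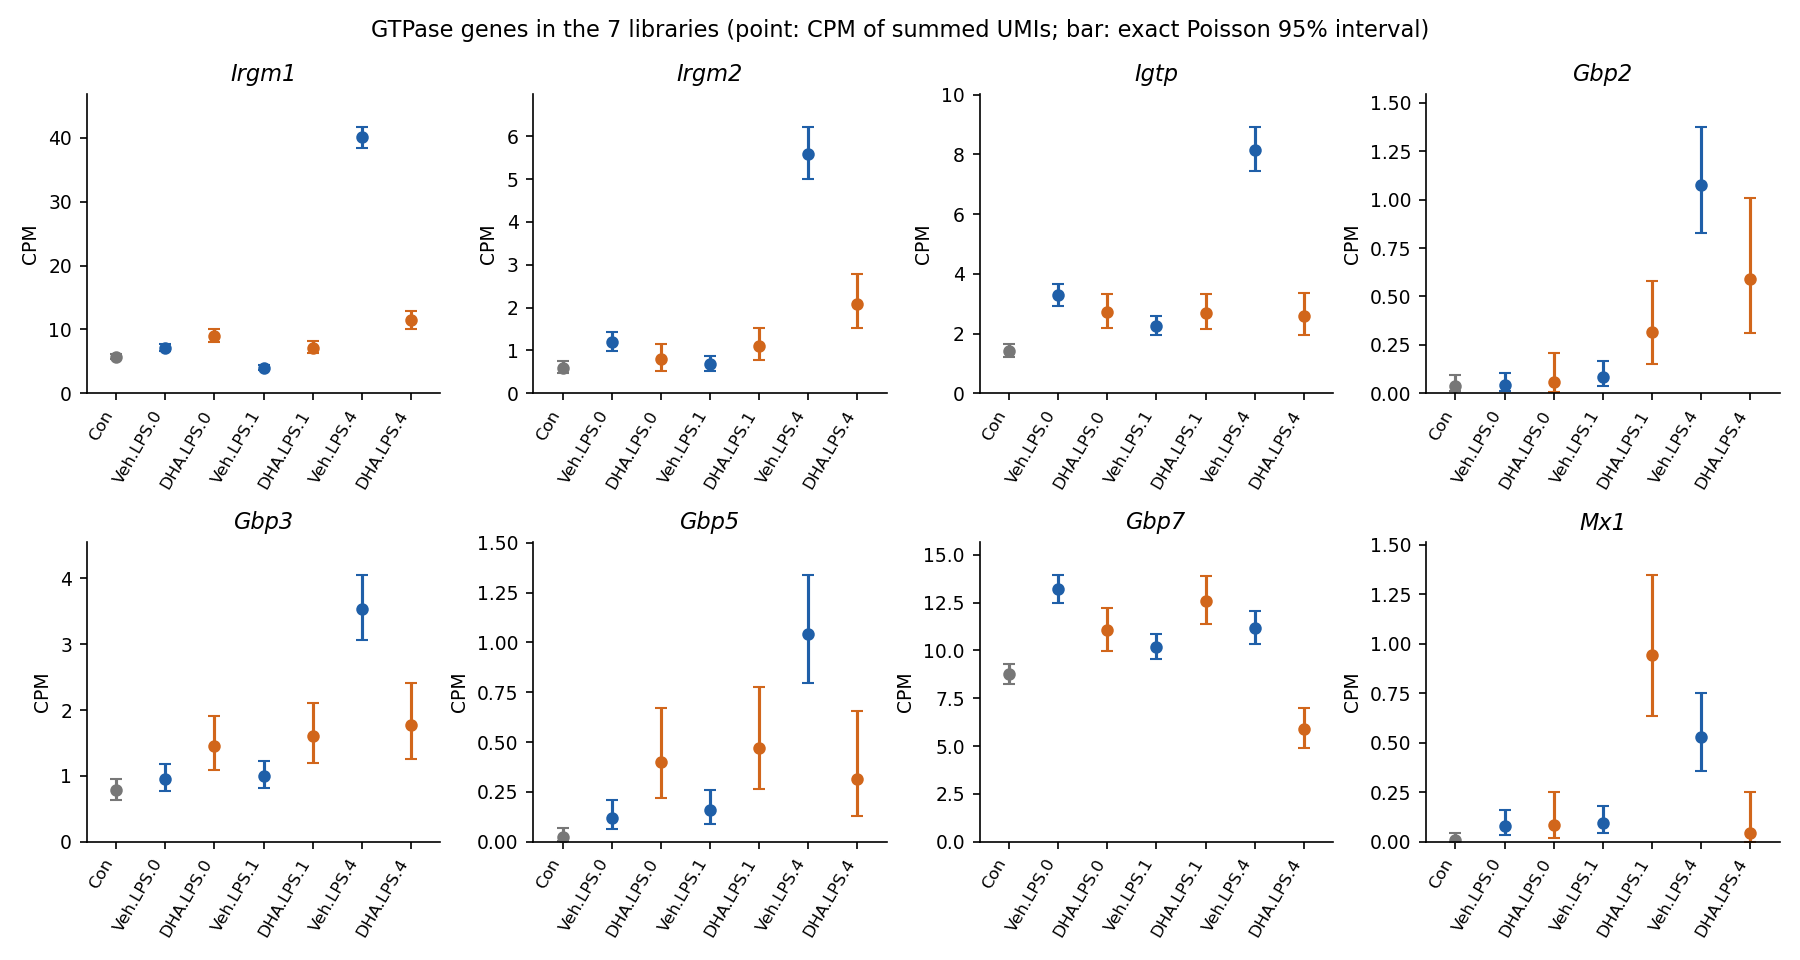
CPM of each GTPase gene (vertical axes, linear from 0, 1 scale per gene) in the 7 libraries (horizontal axes), with exact Poisson 95% intervals. Irgm1, Irgm2, Igtp, Gbp2, Gbp3 and Gbp5 peaked in Veh.LPS.4, Gbp7 in Veh.LPS.0 at 13.2 CPM, and Mx1 in DHA.LPS.1 at 0.943 CPM.

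Veh.LPS.0 was compared with Con. The pair differed in FBS, in the 8.3 µM BSA and in 24 h of culture, and these cannot be told apart. In Veh.LPS.0, 5 of the 8 genes were more than 1.5-fold higher and none was that much lower. Of the 10410 genes with a mean of at least 1 CPM, 13.5% were that much higher and 7.29% that much lower. Igtp was 2.29-fold higher (1.90 to 2.77) and Irgm2 2.02-fold higher (1.5 to 2.73). Gbp7 was 1.51-fold higher (1.39 to 1.63), so its interval reached below the limit. Gbp5 and Mx1 also passed, on 15 and 9 UMIs in the pair of libraries. Irgm1 was 1.23-fold higher (1.11 to 1.37) and Gbp3 1.22-fold (0.912 to 1.64). Summed over the 8 genes, the level was 17.4 CPM in Con and reached 26.0 CPM in Veh.LPS.0. In the cells without UMIs of 4 cell-cycle genes, which number 64 in Con, none of the 5 genes with a value was more than 1.5-fold higher, and the log2 ratios of Irgm2 and Gbp7 were -0.67 and -0.38.

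After 1 h of LPS the vehicle cells held less of the regulatory IRGs. Irgm1 was 0.561 times its level in Veh.LPS.0 (0.494 to 0.637), Irgm2 0.562 times (0.408 to 0.768) and Igtp 0.687 times (0.575 to 0.819). Gbp7 was 0.773 times (0.710 to 0.840). Past 1.5-fold, 2 of the 8 genes were lower and 1 was higher, against 7.89% lower and 5.24% higher of all genes tested. The higher gene was Gbp2, on 8 and 4 UMIs, with an interval of 0.560 to 9.48. Summed CPM was 26.0 in Veh.LPS.0 and 18.4 in Veh.LPS.1, a ratio of 0.710 (0.668 to 0.755).

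By 4 h of LPS, 7 of the 8 genes in vehicle were more than 1.5-fold above Veh.LPS.0 and none was that much below it. Of all genes tested, 10.1% were that much higher and 42.2% that much lower. The whole interval of each of the 7 lay above the limit. Irgm1 was 5.64-fold higher (5.18 to 6.14), Irgm2 4.63-fold (3.74 to 5.76), Igtp 2.49-fold (2.15 to 2.87) and Gbp3 3.67-fold (2.87 to 4.73). On fewer molecules, Gbp2 was 26.5-fold higher (9.87 to 100.4), Gbp5 8.57-fold (4.57 to 17.5) and Mx1 6.53-fold (2.94 to 16.4). A single cell held 14 of the 31 Mx1 UMIs of Veh.LPS.4. In thinned cells the log2 ratio of Mx1 was 1.58 in place of 2.71. Against Veh.LPS.1 the same count, 7 higher and none lower, was found where 8.21% and 34.8% of all genes passed. There Irgm1 was 10.0-fold higher (9.01 to 11.2) and Irgm2 8.24-fold (6.29 to 10.9).

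Gbp7 was the exception at 4 h, with 0.847 times its level in Veh.LPS.0 (0.770 to 0.931) and 1.10 times its level in Veh.LPS.1 (0.991 to 1.21). Its direction depended on the scaling. The median log2 ratio of all genes tested for this pair was -0.43 by library totals and 0.00 with TMM factors, and the log2 ratio of Gbp7 was -0.24 and 0.19. The makeup of the summed UMIs also differed between these libraries. Gbp7 held 50.7% of the summed UMIs of the 8 genes in Veh.LPS.0 and 15.7% in Veh.LPS.4, and Irgm1 held 27.4% and 56.3%.

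In DHA-treated cells the hours of LPS were compared in the same way. DHA.LPS.1 against DHA.LPS.0 had 2 of the 8 genes more than 1.5-fold higher and none lower, where 5.85% and 8.21% of all genes tested were. These were Gbp2 on 10 and 2 UMIs and Mx1 on 30 and 3 UMIs, and 29 of the 30 came from 5 cells. Both genes lie under the 1 CPM limit behind these shares. With other limits on low values 4.66% to 16.5% of all genes were higher. Irgm1 was at 0.788 times its level without LPS (0.662 to 0.938). At 4 h, DHA.LPS.4 against DHA.LPS.0 gave 2 genes more than 1.5-fold higher and 2 lower, where 10.4% of all genes were higher and 36.3% lower. Irgm2 was 2.61-fold higher (1.60 to 4.34), and Gbp2 passed on 13 and 2 UMIs. Irgm1 was 1.26-fold higher (1.07 to 1.49), Gbp3 1.22-fold (0.780 to 1.88) and Igtp 0.953 times (0.674 to 1.34). Gbp7 was 0.534 times its level without LPS (0.434 to 0.653), and Mx1 passed the lower limit on 1 and 3 UMIs. The median log2 ratio of all genes tested was -0.32 in this pair and -0.02 with TMM factors, with which Igtp turned from -0.07 to 0.23. Summed over the 8 genes, DHA.LPS.0 had 25.6 CPM and DHA.LPS.4 had 24.7 CPM, a ratio of 0.965 (0.866 to 1.07).

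**Figure D2:**
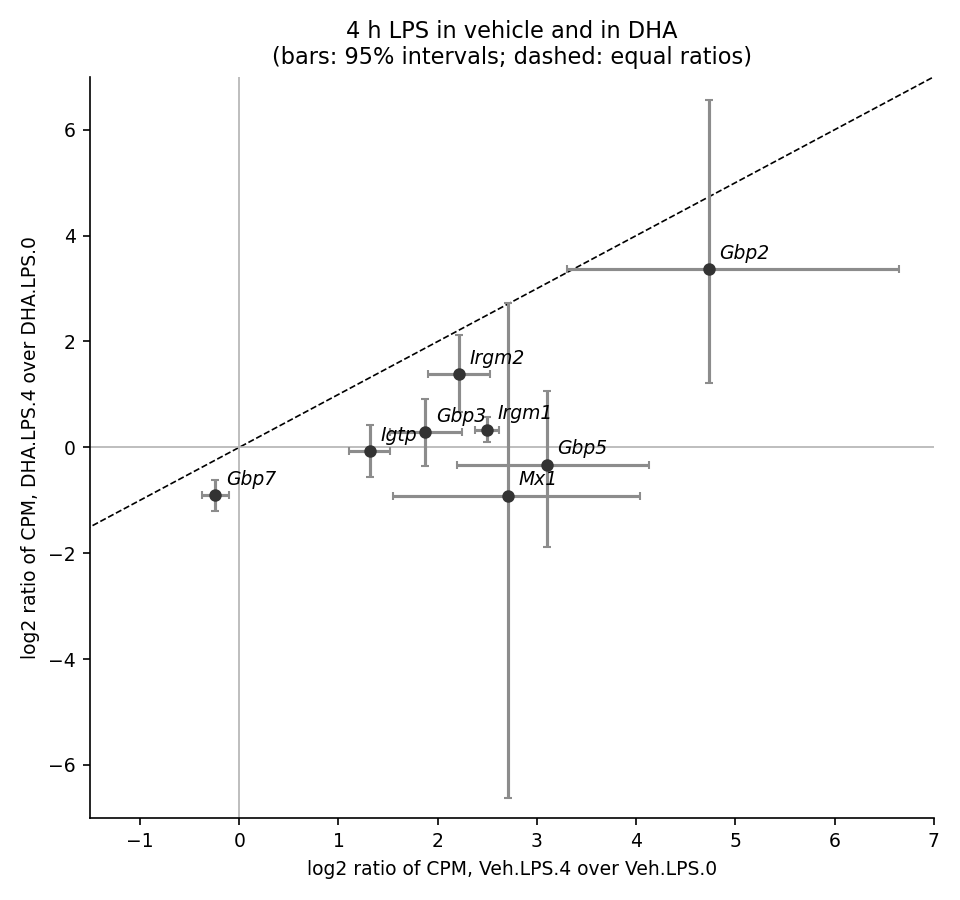
Log2 ratio of CPM after 4 h of LPS against no LPS for each GTPase gene, in vehicle (horizontal axis) and in DHA (vertical axis), with 95% intervals and a dashed line where both ratios are equal. All 8 points lie below the line, Irgm1 at 2.50 in vehicle and 0.34 in DHA.

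The difference in induction was expressed as the ratio in DHA divided by the ratio in vehicle, over 4 libraries that the pairs did not share. At 4 h it was 0.224 for Irgm1 (0.186 to 0.270), 0.383 for Igtp (0.268 to 0.548), 0.331 for Gbp3 (0.204 to 0.536) and 0.0927 for Gbp5 (0.0309 to 0.278). For Irgm2 it was 0.564 (0.337 to 0.943), for Gbp7 0.630 (0.506 to 0.785) and for Mx1 0.0811 (0.00741 to 0.888). Gbp2 alone had an interval that included equal induction, 0.389 (0.0644 to 2.35). At 1 h the same measure lay above 1 for 7 of the genes, with Gbp5 at 0.903 (0.316 to 2.59). It was 1.41 for Irgm1 (1.14 to 1.74), 1.48 for Gbp7 (1.26 to 1.74) and 2.45 for Irgm2 (1.37 to 4.39). Gbp3 at 1.054 (0.6514 to 1.705) and Gbp2 at 2.635 (0.3804 to 18.25) had intervals that included equal induction. The higher ratio in DHA was not kept under every alternative. In thinned cells the log2 ratio of Irgm2 at 1 h was -0.54 in vehicle and -0.92 in DHA. In cells without UMIs of 4 cell-cycle genes that of Irgm1 was -0.6 and -0.87, and that of Gbp7 0.26 and -0.46.

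DHA and vehicle were then compared at each hour. Without LPS the sum of the 8 genes was 0.986 times that of vehicle (0.912 to 1.06), with 2 genes more than 1.5-fold higher and 1 lower, against 2.03% and 1.99% of all genes tested. Gbp5 was higher on 14 and 12 UMIs, 3.29-fold (1.41 to 7.78), and Gbp3 was 1.51-fold higher (1.06 to 2.15). Irgm2 was 0.663 times the vehicle level (0.423 to 1.01). Irgm1 was 1.27-fold higher (1.11 to 1.46) and Gbp7 0.838 times (0.746 to 0.939). None of the 3 genes past the limit had its whole interval past it. In cells thinned to 20000 UMIs the log2 ratio of Irgm2 was 0.01 in place of -0.59, and without the 5% of cells with the most UMIs of the 8 genes that of Gbp3 was -0.32 in place of 0.60.

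At 1 h, 6 of the 8 genes were more than 1.5-fold higher with DHA than with vehicle and none was lower, against 2.59% higher and 2.90% lower of all genes tested. Of the 6, Gbp2, Gbp5 and Mx1 lie under the 1 CPM limit behind these shares, and with other limits on low values 1.33% to 11.5% of all genes were higher. Irgm1 was 1.79-fold higher (1.51 to 2.12) and Mx1 9.91-fold higher (4.58 to 23.7), and these had their whole interval above the limit. Irgm2 was 1.62-fold higher (1.04 to 2.49), Gbp3 1.60-fold (1.11 to 2.27), Gbp5 2.97-fold (1.35 to 6.52) and Gbp2 3.71-fold (1.32 to 10.8). Igtp was 1.20-fold higher (0.923 to 1.55) and Gbp7 1.24-fold (1.10 to 1.39). A few cells carried much of this. The 30 Mx1 UMIs of DHA.LPS.1 came from 6 cells, 11 of them from 1 cell and 29 from the 5 cells with the most. The 5 cells with most Gbp3 held 51.0% of its UMIs in DHA.LPS.1 and 16.8% in Veh.LPS.1. Without the 5% of cells with the most such UMIs in each library, the log2 ratio of Gbp3 was 0.21 in place of 0.67, while that of Irgm1 was 0.85 in place of 0.84. In cells thinned to equal depth that of Irgm2 was -0.37 in place of 0.70, and in cells without UMIs of the 4 cell-cycle genes that of Irgm1 was 0.06.

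At 4 h all 8 genes were more than 1.5-fold lower with DHA than with vehicle, where 3.53% of all genes tested were lower and 5.65% higher. The whole interval lay past the limit for 5 of them. Irgm1 had 40.1 CPM with vehicle and 11.4 CPM with DHA, a ratio of 0.285 (0.250 to 0.325). Igtp had a ratio of 0.317 (0.236 to 0.418), Irgm2 of 0.374 (0.268 to 0.510) and Gbp7 of 0.528 (0.434 to 0.639), and Mx1 had 1 UMI in DHA.LPS.4 against 31, a ratio of 0.0857 (0.00210 to 0.514). Gbp5 at 0.305 (0.118 to 0.667), Gbp3 at 0.501 (0.346 to 0.708) and Gbp2 at 0.549 (0.277 to 1.01) had intervals that reached the limit. Without the 5% of cells with the most UMIs of the 8 genes, the log2 ratio of Gbp2 was 0.16 in place of -0.87. Of the 31 Mx1 UMIs of Veh.LPS.4, 14 came from 1 cell and 21 from the 5 cells with the most. The log2 ratio of Mx1 was -3.54, and it was -2.06 in thinned cells, of which 5 in Veh.LPS.4 and 1 in DHA.LPS.4 held Mx1. It was -0.6 in the thinned cells without UMIs of the 4 cell-cycle genes, on no more cells with Mx1 than these. Summed CPM was 71.1 with vehicle and 24.7 with DHA, a ratio of 0.348 (0.317 to 0.380). This comparison shares Veh.LPS.4 with that of 4 h LPS against no LPS in vehicle.

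Several other measures moved with this pair of libraries. Median depth was 56239 UMIs in Veh.LPS.4 and 29631 UMIs in DHA.LPS.4, and 54.7% and 80.0% of barcodes failed the mitochondrial limit. In cells thinned to 20000 UMIs the log2 ratio of Irgm1 was -1.91 in place of -1.81, and over all alternatives it ran from -2.28 to -1.72. In the barcodes that failed the mitochondrial limit, the summed CPM of the 8 genes, mitochondrial UMIs left out of the total, was 72.9 in Veh.LPS.4 and 21.3 in DHA.LPS.4. Neutrophil markers summed to 2.59 CPM with vehicle and 7.53 CPM with DHA, where 3 of the 5 were at 0 in each and S100a8 had 2.27 and 6.99 CPM. Their part in the result was not tested. Cells without UMIs of the 4 cell-cycle genes made up 41.8% of Veh.LPS.4 and 30.3% of DHA.LPS.4, and within them Irgm1 had a log2 ratio of -2.24.

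**Figure D3:**
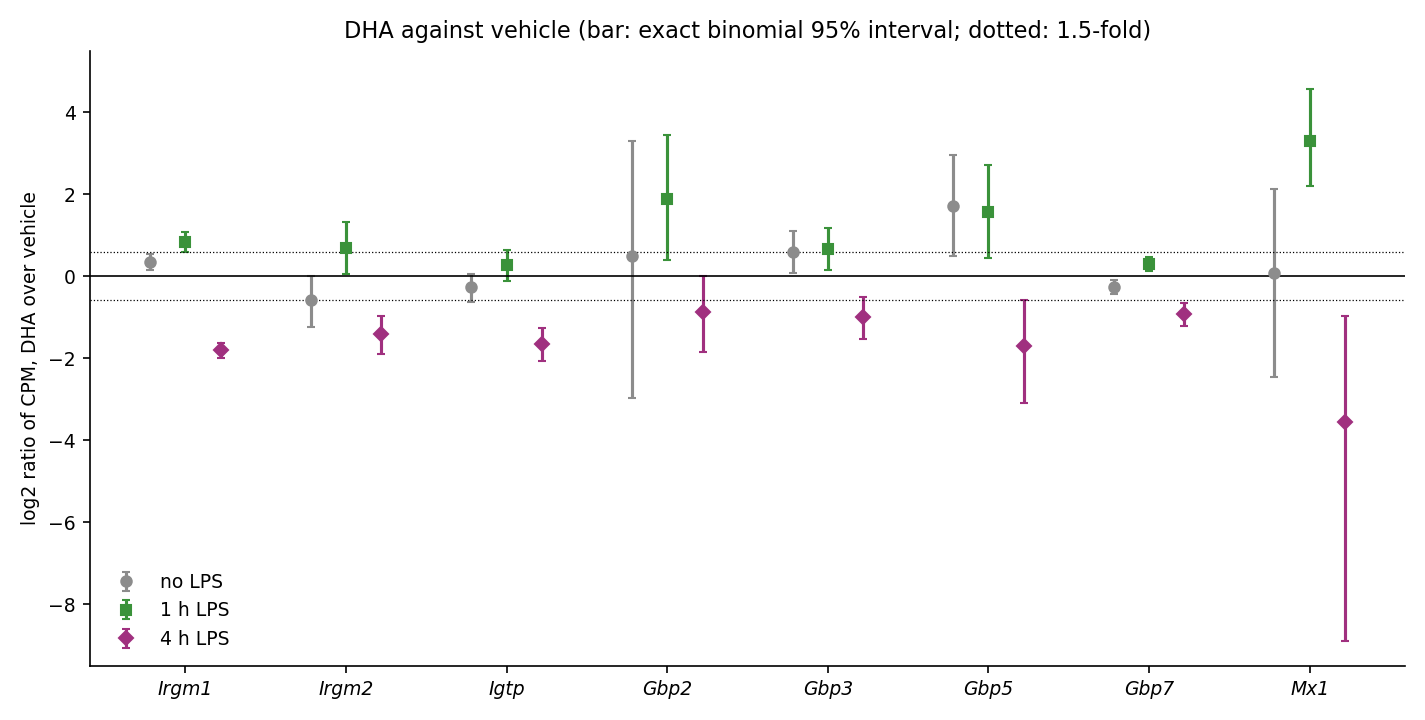
Log2 ratio of CPM of DHA over vehicle (vertical axis) for each GTPase gene without LPS, at 1 h and at 4 h, with exact binomial 95% intervals and dotted lines at 1.5-fold. At 4 h all 8 genes lie below the lower dotted line, and at 1 h all 8 lie above 0.

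The GTPases were found in some cells and not in others. In cells thinned to 20000 UMIs, at least 1 of the 8 genes had a UMI in 54.0% of Veh.LPS.4 cells (50.8 to 57.1%) and in 28.5% of DHA.LPS.4 cells (25.1 to 32.0%). The share was 27.7% in Con, 37.3% in Veh.LPS.0, 33.4% in DHA.LPS.0, 26.5% in Veh.LPS.1 and 31.6% in DHA.LPS.1. Cells that held 3 or more of the genes other than Gbp7 made up 5.34% of Veh.LPS.4 (4.02 to 6.92%) and 1.73% of DHA.LPS.4 (0.899 to 3.01%), and at most 0.881% of any other library. The tenth of thinned cells with the most UMIs of the 8 genes held 49.3% of them in Veh.LPS.4 and 62.1% in DHA.LPS.4. In the other libraries this share ran from 46.6% in Veh.LPS.0 to 59.8% in DHA.LPS.1, with 49.3% in Con. The share was not corrected for the fewer such UMIs per cell in DHA.LPS.4. The variance of these UMIs over cells had the opposite order, 4.21 times the mean in Veh.LPS.4 and 2.56 times in DHA.LPS.4. Whether DHA changed how the UMIs spread over cells was therefore not shown. No other cell type was separated in these libraries to give the share that free RNA in the droplets adds, and its part was not tested.

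Within Veh.LPS.4 several of the genes occurred together, and this was not particular to that library. Igtp had a UMI in 22.9% of cells with Irgm1 and in 7.60% of cells without it, and Irgm2 in 18.3% and 4.95%. Of the 15 cells with Gbp5, 12 also had Gbp7, and of the 17 cells with Gbp2, 11 had it. In DHA.LPS.4 Igtp had a UMI in 15.38% of cells with Irgm1 and in 2.609% of cells without it, and Irgm2 in 11.97% and 1.913%. In DHA.LPS.1 these shares were 13.54% and 3.433% for Igtp. For Irgm2 they were 3.125% and 0.8584%, on 3 cells with both genes. In Veh.LPS.0 the pairs with Irgm1 were closer to even. There Igtp was in 9.36% of cells with Irgm1 and in 5.98% of cells without it, and Irgm2 in 2.92% and 2.01%. Depth was equal between cells, but the cells of 1 library share their culture and are not replicates.

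**Figure D4:**
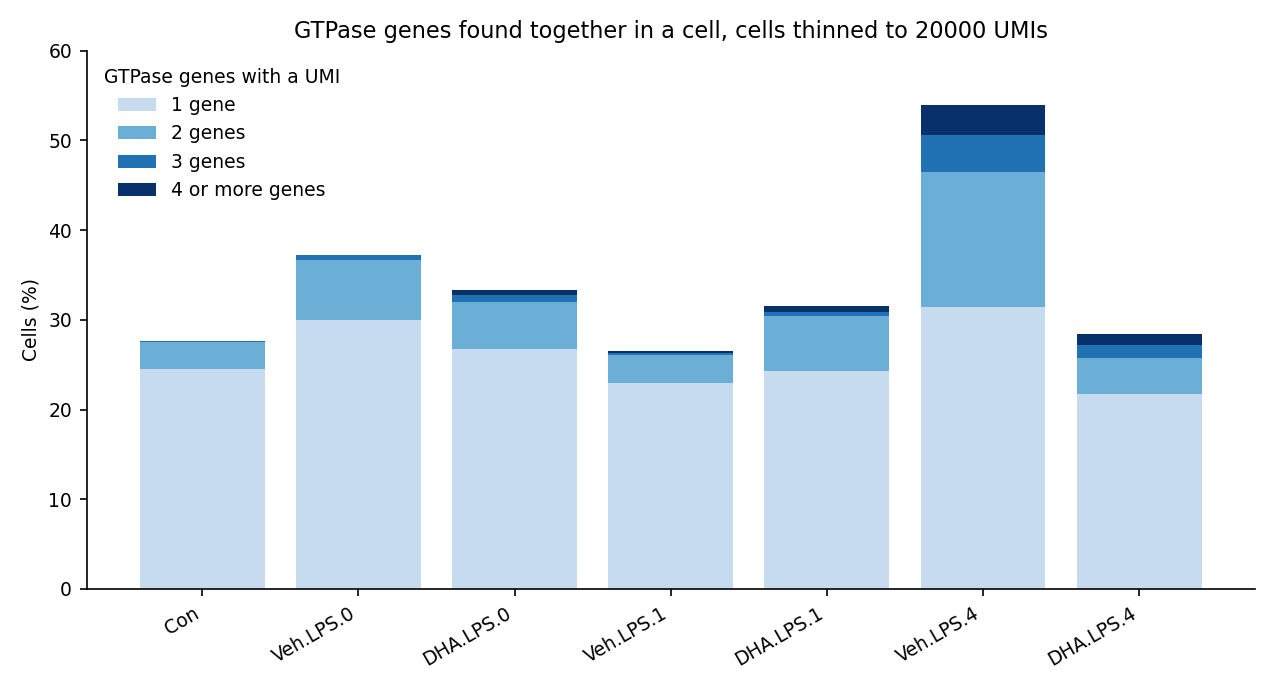
Share of cells (vertical axis, percent) in each library that held a UMI of 1, 2, 3 or at least 4 of the 8 GTPase genes, after each cell was thinned to 20000 UMIs. Veh.LPS.4 has the tallest bar, 54.0%, and the largest part with 3 or more genes, 7.55% against 2.75% in DHA.LPS.4.

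Of the genes that encode interferons, only Ifnb1, Ifng and Ifna4 were examined, and only as RNA in the cells. Ifnb1, which encodes interferon beta, had 197 UMIs in 21 of 993 Veh.LPS.4 cells and 11 UMIs in 5 of 692 DHA.LPS.4 cells. The CPM ratio was 0.148 (0.0729 to 0.271), an interval that leaves out the uneven spread over cells. In thinned cells Ifnb1 was found in 1.51% (0.848 to 2.48%) and 0.434% (0.0895 to 1.26%), with overlapping intervals. It had 8 UMIs in Veh.LPS.1 and none in Veh.LPS.0, so that Veh.LPS.4 was at least 111-fold higher than a floor of 3 UMIs in that library. Ifng and Ifna4 had no UMI in any library. By the exact binomial interval, a count of 0 allows up to 0.12% of cells with a UMI in Veh.LPS.1, the library with most cells. In DHA.LPS.4, that with fewest, it allows up to 0.532%. After thinning, the 15 Veh.LPS.4 cells with an Ifnb1 UMI held 4.47 UMIs of the 8 genes on average and the other 978 held 1.46.

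At 4 h of LPS in vehicle the receptor gene Ifngr1 was at 0.367 times its level without LPS (0.339 to 0.397), and Ifngr2 at 1.05 times (1.00 to 1.10). Of the type I receptor genes, Ifnar1 was at 0.824 times (0.766 to 0.886) and Ifnar2 at 0.680 times (0.653 to 0.708). The median log2 ratio of all genes tested in this vehicle pair was -0.43 by library totals and 0.00 with TMM factors. By totals 42.2% of all genes tested were more than 1.5-fold lower, so a ratio of this size is not shown to be a loss of receptor RNA. Between DHA.LPS.4 and Veh.LPS.4 the 4 receptor genes had ratios of 1.12 to 1.23. Among interferon signalling genes in the same comparison, Stat2 had a ratio of 0.368 (0.310 to 0.435) and Irf9 of 0.538 (0.491 to 0.589), and Irf7, a factor that amplifies the response, was at 0.346 (0.302 to 0.395). The kinase genes Jak1, Jak2 and Tyk2 were at 1.22, 1.01 and 1.15. Of the 6 genes that restrain the signal, Usp18 at 0.269 and Socs1 at 0.628 were lower and Socs3 was at 1.07. Of all genes tested, 3.53% were more than 1.5-fold lower.

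Some other IRG genes were higher at 4 h of LPS in vehicle. Of the 7 with at least 10 UMIs in the pair, 4 were more than 1.5-fold higher than in Veh.LPS.0 and none was lower. Of all genes tested, 10.1% were that much higher and 42.2% that much lower. Ifi47 was 2.07-fold higher (1.84 to 2.33), and Iigp1 was 30.3-fold higher on 18 and 1 UMIs with an interval of 4.79 to 1264. With DHA at 4 h, 5 of 7 were lower than in vehicle, where 3.53% of all genes tested were. Ifi47 was at 0.520 (0.425 to 0.633) and Gm5431, the neighbour of Irgm1, at 0.0857 (0.0102 to 0.323). Among other GBP genes, Gbp2b, which lies between Gbp3 and Gbp2, had 6 UMIs in Veh.LPS.0 and 104 UMIs in Veh.LPS.4, 29.2-fold higher (13.0 to 81.4). It was at 0.741 in DHA.LPS.4 against Veh.LPS.4 (0.473 to 1.13), and 1 of 3 other GBP genes with enough UMIs was lower there.

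Dynamin-like and atlastin GTPases, relatives of the family that shape membranes and are not known as interferon targets, gave a different picture. None of the 9 with enough UMIs was lower with DHA at 4 h and 1, Dnm1 at 2.03 (1.17 to 3.49), was higher. The shares of all genes tested were 3.53% lower and 5.65% higher. The median log2 ratio of the 9 was 0.24, beside -1.54 for the 8 interferon-inducible GTPases and 0.09 over all genes tested. At 4 h of LPS in vehicle none of 10 was more than 1.5-fold higher and 6 were lower, where 10.1% and 42.2% of all genes tested were. The 10 had a median of -0.78 beside -0.43 over all genes.

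Genes that the GTPases are known to work with were followed next. With DHA at 4 h, 3.53% of all genes tested were more than 1.5-fold lower. Of 12 genes for targeting GTPases to vacuoles, through ubiquitin-like conjugation and adaptors, 1 was lower. That was Trim21 at 0.535 (0.404 to 0.699), and Atg3, Atg5, Atg7, Atg12, Atg16l1 and Gabarap were at 1.01 to 1.32. Of 5 inflammasome genes that act downstream of GBPs none passed the limit in that comparison, with Casp4, the sensor of intracellular LPS, at 0.996 (0.930 to 1.07). At 4 h of LPS in vehicle Casp4 was 3.31-fold higher than without LPS (3.12 to 3.52). None of 5 genes of the prenylation pathway, which gives Gbp2 and Gbp5 their lipid anchor, passed in either direction.

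A set of 12 other genes induced by type I interferon was set beside the GTPases. At 4 h of LPS in vehicle all 12 were more than 1.5-fold higher, where 10.1% of all genes tested were. Their median log2 ratio was 2.94 beside 2.35 for the 8 GTPases. Ifit1 was 100.1-fold higher (74.1 to 139) and Rsad2 68.6-fold (38.0 to 138). At 4 h DHA against vehicle, 11 of 12 were lower, against 3.53% of all genes tested, and the 12 had a median of -1.13. Without LPS the lists differed in size of change. There 10 of the 12 genes were more than 1.5-fold higher with DHA, against 2.03% of all genes tested. The 12 had a median log2 ratio of 1.59, where the 7 GTPases with at least 10 UMIs had a median of 0.08. Ifit1 was 18.6-fold higher with DHA without LPS (13.5 to 26.3), Rsad2 26.9-fold (14.4 to 55.6) and Isg15 3.89-fold (3.23 to 4.69). At 1 h, 11 of 12 were higher with DHA, against 2.59% of all genes tested. The 12 had a median of 1.69, and the GTPases had a median of 0.77.

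**Figure D5:**
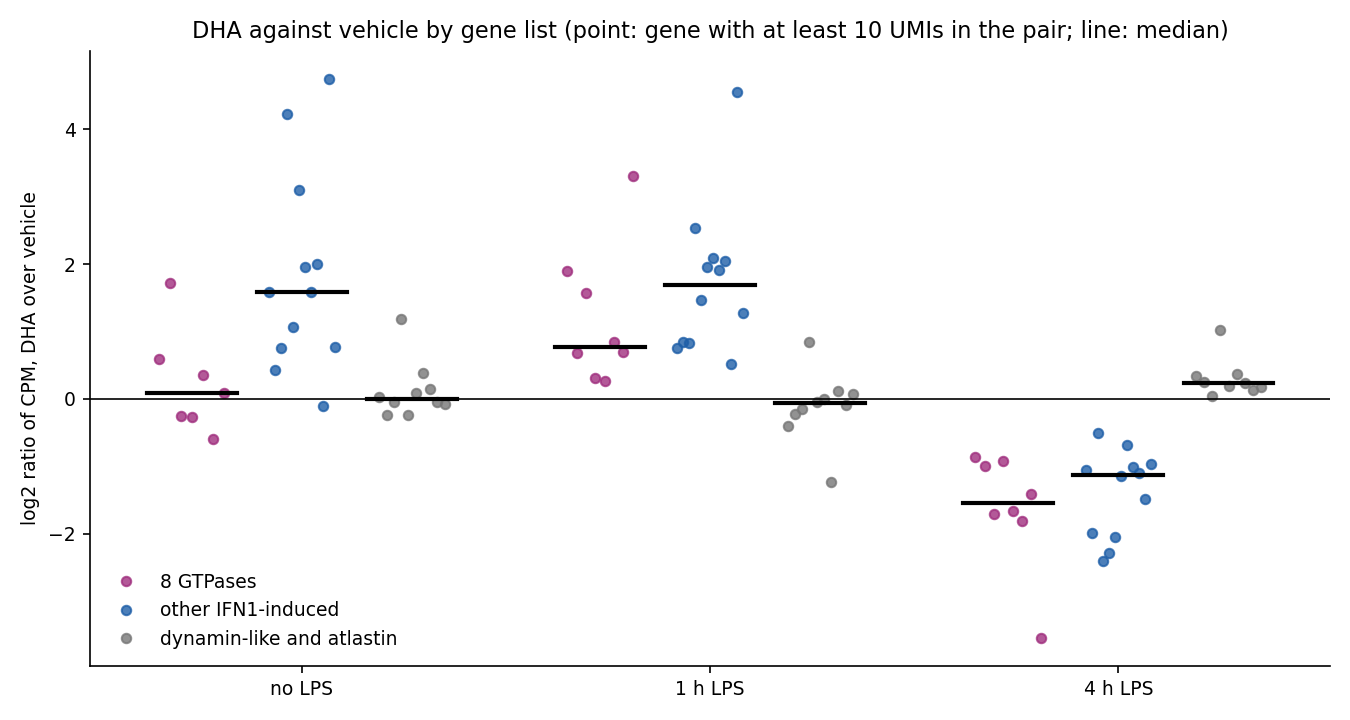
Log2 ratio of CPM of DHA over vehicle (vertical axis) without LPS and at 1 h and 4 h, for the 8 GTPases, 12 other genes induced by type I interferon and 10 dynamin-like and atlastin genes. Each point is a gene with at least 10 UMIs in the pair and black lines are medians, which for the GTPases are 0.08, 0.77 and -1.54.

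Over the 993 thinned cells of Veh.LPS.4, the genes whose UMIs went most closely with the summed UMIs of the 8 GTPases were Eif2ak2, Usp18, Ifi207, Parp14, Phf11d, Ifit1, Slfn5, Ddx58, Ifi202b and 9930111J21Rik2. The Spearman correlation was 0.51 for Eif2ak2, the kinase PKR, and 0.39 for 9930111J21Rik2, among 7696 genes found in at least 10% of these cells. Over the 7 libraries, with the mean log2(CPM + 1) of the 8 genes, the closest were Eif2ak2, Adar, Ifi47, Ifi35, Oas2, Batf2, Ddit4, Irf9, Vcpip1 and Samd9l. Its first gene, Eif2ak2, had 210 CPM in Veh.LPS.4, 117 CPM at 4 h with DHA and 93.3 to 128 CPM in the other 5 libraries. Both rankings share libraries with the comparisons above and are descriptions.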

How the data were processed

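Single-cell 3′ RNA-seq counts of 7 libraries, 1 per condition, were used. The authors deposited, per library, a matrix of UMI counts per gene and barcode, unnormalised, made with Cell Ranger 3.1.0 on mm10 per the labels (the study's methods give another version). The deposited matrices precede the study's filter on cells, so barcodes with more than 20000 UMIs, at least 2000 genes and less than 20% UMIs of mt- genes were kept here. Counts were summed over the kept cells and divided by the library total to give CPM. Intervals are exact Poisson for CPM, exact binomial (Clopper-Pearson) for shares of cells, and exact binomial on the summed UMIs for CPM ratios, all at 95%. The interval of a ratio of ratios is a normal approximation on the log scale. They cover counting error only and leave out the spread between cultures. The intervals of CPM and of ratios also leave out the uneven spread of UMIs over cells. No significance test was run, since each condition was 1 library and a model of DHA over the 3 hours of LPS would take the differences between hours as its error. Genes were counted by size, at 1.5-fold. Background percentages are over the 10410 of 31053 genes with a mean of at least 1 CPM. Lists were described over genes with at least 10 UMIs in the pair compared.

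To compare shares of cells, each cell was thinned to 20000 UMIs at random. No kept cell was shallower. Doublets were not removed. Alternatives were TMM factors (edgeR 4.0.16, R 4.3.3), median-of-ratios size factors, other limits on barcodes, thinned cells, thinned cells without UMIs of 4 cell-cycle genes, and a 2-fold limit. Other steps used Python 3.11.15, numpy 2.4.6, scipy 1.17.1, pandas 2.3.3 and matplotlib 3.10.9. The ratio step was tested on Poisson counts simulated from the totals of these libraries. Such counts lack the uneven spread of UMIs over cells, so the intervals were not tested for it. Gene positions came from the RefSeq table of GRCm38.p6. Of the listed symbols 3, Gm12250, Gbp11 and Mx2, had no match in the files by symbol.

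The 8 genes and the lists were chosen with earlier results of these data known. Named genes were the 8, for each list at most its first 6 genes and its highest and lowest, and the 10 genes most alike over cells and over libraries. The markers Cd3g and S100a8 were named after their values were seen. Close copies such as Gbp2 and Gbp2b or 9930111J21Rik1 and 9930111J21Rik2 may share reads. The replicate spread could not be measured. The list of interferon signalling genes is not reported here as a whole.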

Additional observations from a re-analysis of the deposited data

Results flagged for a closer look

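The 5 differences below stand out because the log2 ratio with LPS had opposite signs in vehicle and DHA cells. In DHA the interval of each of the 5 included no change, so a direction in DHA is not shown. None of these differences was tested, since each condition was 1 library. For Irgm2 at 1 h the log2 ratio against no LPS was -0.83 in vehicle and 0.46 in DHA, but in cells thinned to 20000 UMIs it was -0.54 in vehicle and -0.92 in DHA, both downward. For Gbp7 at 1 h it was -0.37 in vehicle and 0.19 in DHA. In cells without UMIs of the 4 cell-cycle genes that of Gbp7 was 0.26 in vehicle and -0.46 in DHA.

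At 4 h the log2 ratio of Igtp was 1.31 in vehicle and -0.07 in DHA. With TMM factors the value in DHA was 0.23, so that for Igtp the opposite sign was not kept under that scaling. For Gbp5 the values were 3.10 in vehicle and -0.33 in DHA, the latter on 7 and 14 UMIs. The value of Gbp5 in DHA was -0.03 with TMM factors and 0.01 with median-of-ratios size factors, and reached 0.34 over the alternatives. For Mx1 they were 2.71 in vehicle and -0.92 in DHA, the latter on 1 and 3 UMIs, and 0.52 in DHA over all barcodes.

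The barcodes with at least 20% mitochondrial UMIs, which the cell filter left out, also held the GTPases. With mitochondrial UMIs left out of the total, the 8 genes summed to 72.95 CPM in Veh.LPS.4 and to 17.69 CPM in Con. In DHA.LPS.4 the sum was 21.3 in those barcodes and 26.6 in the cells kept.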

How the results depend on the processing

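No paired analysis was possible because each condition was 1 library, so that the groups compared share fewer than 2 replicate numbers. For the same reason no replicate could be left out of a condition. A fit that pairs vehicle and DHA over the hours of LPS was not run. Of the counts of GTPases past the limit, 177 stayed within 1.5 times of the reported count under an alternative and 39 did not. No share of all genes at the same setting is set beside the counts below. A gene with UMIs in only 1 library of a pair has no log2 ratio but is counted there as past the limit. Of 764 log2 ratios of single genes under the alternatives, 50 turned sign, of which 10 were past 1.5-fold as reported and are given below. The cause of these changes was not tested.

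The cells without UMIs of 4 cell-cycle genes after thinning, few in Con, changed most. Some of their counts rest on genes with UMIs in only 1 library of the pair. Among genes with UMIs in both, Gbp3 alone was higher for Veh.LPS.1 against Veh.LPS.0. Only Gbp3 and Gbp7 were higher for DHA.LPS.0 against Veh.LPS.0, and no such gene was lower for DHA.LPS.1 against Veh.LPS.1. Counts past 1.5-fold there were 0 higher and 1 lower for Veh.LPS.0 against Con, 4 higher for Veh.LPS.1 against Veh.LPS.0, 1 lower for Veh.LPS.4 against Veh.LPS.1, 5 higher for DHA.LPS.0 against Veh.LPS.0, 2 lower for DHA.LPS.1 against Veh.LPS.1, 1 higher and 4 lower for DHA.LPS.1 against DHA.LPS.0, and 1 higher and 5 lower for DHA.LPS.4 against DHA.LPS.0. Log2 ratios past 1.5-fold as reported that turned sign in these cells were Irgm2 at -0.67 and Gbp7 at -0.38 for Veh.LPS.0 against Con, Mx1 at -0.61 for Veh.LPS.4 against Veh.LPS.1, and Gbp2 at -0.91 for DHA.LPS.4 against DHA.LPS.0. They rest on few cells. Among all thinned cells, 5 of Veh.LPS.4 and 3 of Veh.LPS.1 held Mx1, and 6 of DHA.LPS.4 and 1 of DHA.LPS.0 held Gbp2. Con gave 64 cells to this alternative. A direction in these cells is not shown.

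With a 2-fold limit the counts were 0 lower for Veh.LPS.1 against Veh.LPS.0, 1 higher and 0 lower for DHA.LPS.0 against Veh.LPS.0, 3 higher for DHA.LPS.1 against Veh.LPS.1, 5 lower for DHA.LPS.4 against Veh.LPS.4 and 0 lower for DHA.LPS.4 against DHA.LPS.0. Over all barcodes they were 2 higher for Veh.LPS.1 against Veh.LPS.0, 0 lower for DHA.LPS.0 against Veh.LPS.0, 3 higher for DHA.LPS.1 against Veh.LPS.1 and 1 lower for DHA.LPS.4 against DHA.LPS.0, where the log2 ratio of Mx1 was 0.52. Over barcodes with more than 10000 UMIs they were 2 higher for Veh.LPS.1 against Veh.LPS.0, 4 higher for DHA.LPS.0 against Veh.LPS.0 and 1 lower for DHA.LPS.4 against DHA.LPS.0.

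For DHA.LPS.0 against Veh.LPS.0 the count of lower genes, 1 as reported, was 0 with TMM factors, median-of-ratios size factors, a 10% mitochondrial limit, the mean of per-cell CPM, cells thinned to 20000 UMIs, and without the 5% of cells with the most UMIs. Median-of-ratios size factors gave 4 higher and 0 lower for DHA.LPS.4 against DHA.LPS.0. Thinned cells gave 1 lower for DHA.LPS.1 against DHA.LPS.0, and log2 ratios of Irgm2 of 0.01 for DHA.LPS.0 against Veh.LPS.0 and -0.37 for DHA.LPS.1 against Veh.LPS.1.

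Leaving out the 5% of cells with the most GTPase UMIs, an alternative chosen after seeing the data, gave 0 higher and 4 lower for Veh.LPS.1 against Veh.LPS.0, 1 lower for Veh.LPS.4 against Veh.LPS.0, 1 higher and 2 lower for DHA.LPS.0 against Veh.LPS.0, 1 lower for DHA.LPS.1 against DHA.LPS.0 and 4 lower for DHA.LPS.4 against DHA.LPS.0. Log2 ratios past 1.5-fold as reported that turned sign were Gbp2 at -0.53 for Veh.LPS.1 against Veh.LPS.0, Gbp3 at -0.32 for DHA.LPS.0 against Veh.LPS.0 and Gbp2 at 0.16 for DHA.LPS.4 against Veh.LPS.4.

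Without thinning, the share of cells with any of the 8 genes was 47.6% in Con, 55.8% in Veh.LPS.0, 58.7% in DHA.LPS.0, 36.1% in Veh.LPS.1, 47.2% in DHA.LPS.1, 77.1% in Veh.LPS.4 and 34.8% in DHA.LPS.4. The share with 3 or more, Gbp7 aside, was 0.310% in Con, 0.524% in Veh.LPS.0 and 14.9% in Veh.LPS.4. Across the filters on low values, the share of all genes lower for DHA.LPS.4 against Veh.LPS.4 ran from 2.42% to 18.0% and the share higher from 2.22% to 12.7%. Depth limits Gbp2, Gbp5 and Mx1, which had at most 63 UMIs in a library.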

Other observations

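The summed UMIs of the 8 genes spread over cells more widely than counting alone gives in every library. At equal depth their variance over cells was 1.31 times the mean in Veh.LPS.0 and 1.40 times in Con, where Poisson counts give 1. It was 4.46 times in DHA.LPS.1 and 4.21 times in Veh.LPS.4. Such a ratio can rest largely on 1 cell. The fullest cell held 30 of these UMIs in DHA.LPS.1, where the mean was 0.5572, and 18 in Con, where it was 0.3483. In Veh.LPS.4 the fullest cell held 18, with a mean of 1.501. The ratios were not recomputed without these cells, so a spread over many cells is not shown by them. A single Veh.LPS.1 cell held UMIs of all 8 genes, while no other cell of that library held more than 6.

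The 3 DHA.LPS.4 cells with an Ifnb1 UMI at equal depth held 4 UMIs of the 8 genes on average, and the other 689 held 0.469. With 3 cells of 1 library this is a value only.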
